A study of Mus musculus with 35 samples.

Results

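The miR-23, miR-27 and miR-24 clusters were represented on the mouse liver PCR array by 5 of its 376 miRNA assays, namely mmu-miR-23a, mmu-miR-27a, mmu-miR-23b, mmu-miR-27b and mmu-miR-24. The members were all assays with the miRNA number 23, 24 or 27, without the star forms, a rule that uses no measured value, although it was set with earlier results of these data known. All 5 had low Ct values, at ranks 21 to 32 of the 376 assays. After a single dose of the alkylating carcinogen ENU, 0 of the 5 passed the thresholds of the study against the control group at any post-treatment day (PTD), at which 1.33% to 11.4% of all miRNAs passed. The controls were run in different periods, and with the run period as a block 1 member passed at PTD 7 and 3 at PTD 15, where 38.0% and 42.6% of all miRNAs did. Their levels at PTDs 7 and 15 were about 1 log2 unit above those at PTD 1, a comparison that uses no control mouse and in which the median over all 376 miRNAs was 0.72. Set against the reference RNAs, the means at PTDs 30 and 120, whose arrays were run in another period, stood at a similar height. Set against the median Ct of the array instead, all 5 members were lower there than at PTDs 7 and 15. The b forms read lower Ct values than the a forms in every one of the 35 arrays.

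The mice were females of the Big Blue transgenic line, which carries a recoverable bacterial reporter for mutation assays in all groups, controls included, and they were 6 months old at treatment. They received a single intraperitoneal injection of N-ethyl-N-nitrosourea (ENU) at 120 mg/kg or of its vehicle dimethylsulfoxide, and whole liver was taken. ENU groups held 5 mice at each of PTDs 1, 3, 7 and 15 and 4 mice at each of PTDs 30 and 120, and the 7 control mice formed a single group. By their labels, 3 controls were killed on day 1 and 4 on day 30, while the Methods of the study exchange these counts, so that the day of a control is named here only as its label.

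Mammalian genomes hold a pair of related clusters. One encodes miR-23a, miR-27a and a copy of miR-24, and the other encodes miR-23b, miR-27b and the other copy of miR-24. The mature miR-24 of both copies has the same sequence, so its assay reads the product of both clusters together. A miRNA recognizes target messages mainly through its seed, the bases at positions 2 to 8 from its 5′ end. Among the known roles of these miRNAs, miR-27 represses genes of lipid metabolism, miR-23a represses glutaminase, the miR-23b cluster represses Smad proteins of TGF-beta signalling in fetal liver cells, and miR-24 represses cell cycle genes and the histone variant H2AX, which marks DNA breaks. ENU is a mutagen that adds ethyl groups to DNA bases.

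In the GRCm38.p6 assembly, the a cluster lies on the plus strand of chromosome 8, with the hairpins Mir23a at chr8:84208518-84208592, Mir27a at chr8:84208672-84208758 and Mir24-2 at chr8:84208815-84208921, a span of 404 bases that lies in no other annotated gene. The b cluster lies on the plus strand of chromosome 13, with Mir23b at chr13:63300484-63300557, Mir27b at chr13:63300712-63300784 and Mir24-1 at chr13:63301208-63301275, a span of 792 bases inside the protein-coding gene Aopep (chr13:62964893-63326096), which encodes an aminopeptidase. Mature sequences from RefSeq are shown for miR-23a, miR-27a, miR-27b and miR-24. They are written 5′ to 3′ with the seed in capitals, to show which members share a seed and how far the a and b forms of miR-27 differ.
mmu-miR-23a-3p: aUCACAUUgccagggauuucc
mmu-miR-27a-3p: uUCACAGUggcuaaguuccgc
mmu-miR-27b-3p: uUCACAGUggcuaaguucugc
mmu-miR-24-3p: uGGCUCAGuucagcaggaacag
The miR-27a and miR-27b sequences have the same seed and are identical at 20 of 21 bases, with the single substitution C19U, counted from the 5′ end. The seeds of miR-23a and miR-27a differ by the substitution U7G. How far the assays for miR-27a and miR-27b, or those for miR-23a and miR-23b, also amplify each other's template was not tested.

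For every array, the deposited threshold cycle (Ct) of a miRNA was set against the mean Ct of 4 reference RNAs (snoRNA251, snoRNA202, snoRNA142 and U6), and levels are given as −ΔCt, on a log2 scale on which a higher value stands for more RNA. The reference RNAs averaged a Ct of 21.0 to 23.5 per array. The miR-34 family, induced by p53 after DNA damage, served to check the processing. The study reported it as raised in these same arrays, so it is no independent check of the treatment. Of its 3 members, 2, 3, 3, 3, 3 and 0 passed the thresholds at the 6 PTDs in order of time. The hepatocyte miRNAs miR-122, miR-192 and miR-194 were abundant, and miR-122 had a mean Ct of 14.5. The 7 controls were not of 1 kind. Arrays of the 3 controls labelled day 1 were run in period 1, and those of the 4 labelled day 30 in periods 2 and 3. The periods were formed from the month of the run date, with February and March joined as period 1, April as period 2 and May as period 3. Day label and run period cannot be told apart in the controls. ENU arrays of PTDs 3, 7 and 15 were run in period 1, those of PTDs 30 and 120 in period 2, and those of PTD 1 in period 1 except for 1 array. Arrays of period 1 were not uniform. The mean Ct difference of the reverse transcription control wells was −0.24 cycles in the controls labelled day 1, and 0.098 and 0.062 cycles at PTDs 7 and 15. Whether this marks a batch within period 1 was not tested.

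Over all arrays, the mean Ct was 20.3 for miR-23a, 20.4 for miR-27a, 19.7 for miR-23b, 19.4 for miR-27b and 19.2 for miR-24. These values placed the members at ranks 21 to 32 of the 376 miRNAs, from the lowest Ct up. Only 1 well of the members was Undetermined, that of miR-24 in replicate 5 of PTD 1, and it was treated as missing. Ct values of different assays depend on the amplification efficiency of each assay, which is not given in the sources used here, so the order of the members by Ct is an order of readings and not of molecules.

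The members varied little in Ct and more after normalization. Over 35 arrays, the SD of the Ct was between 0.316 (miR-23a) and 0.414 (miR-27a) cycles. On the −ΔCt scale the SD was between 0.499 (miR-24, 34 arrays) and 0.649 (miR-23b), and relative to the median Ct of the 376 miRNAs of the same array it was between 0.344 (miR-24) and 0.487 (miR-27a).

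**Figure D1:**
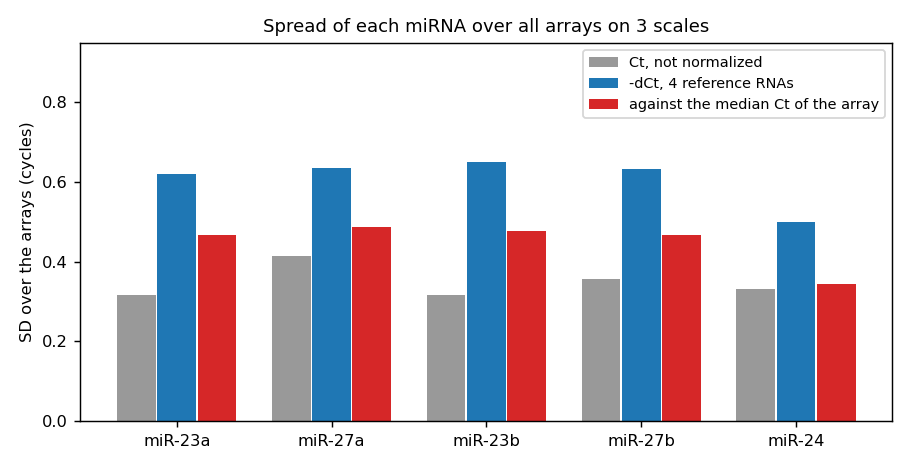
SD of each member over all arrays (35, and 34 for miR-24) in cycles, for the Ct as deposited, for −ΔCt against the 4 reference RNAs, and against the median Ct of the array. For every member the bar of −ΔCt is the highest and the bar of Ct the lowest.

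The control mice fell apart on the −ΔCt scale. For miR-23a, the controls labelled day 1 had −ΔCt values of 0.79, 1.15 and 0.75, and those labelled day 30 had 1.77, 2.13, 2.15 and 2.21. For miR-24, the values were 2.10, 2.34 and 2.09 against 2.92, 3.05, 2.83 and 2.87. The groups did not overlap for any of the 5 members. The day 30 label was higher by 1.17 for miR-23a, 1.21 for miR-27a, 1.23 for miR-23b, 1.00 for miR-27b and 0.74 for miR-24, each with an exact permutation p of 0.0286, the smallest that 3 against 4 arrays allow. The same order, with every control labelled day 30 above every control labelled day 1, held for 180 of the 376 miRNAs (47.9%). The reference RNAs averaged a Ct of 21.2 ± 0.135 (SD, n = 3) under the day 1 label and 22.1 ± 0.265 (SD, n = 4) under the day 30 label. Relative to the median Ct of the array, the difference between the labels was −0.17 to 0.33 for the members, with exact permutation p values of 0.2 to 0.657 (n = 3 and 4).

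**Figure D2:**
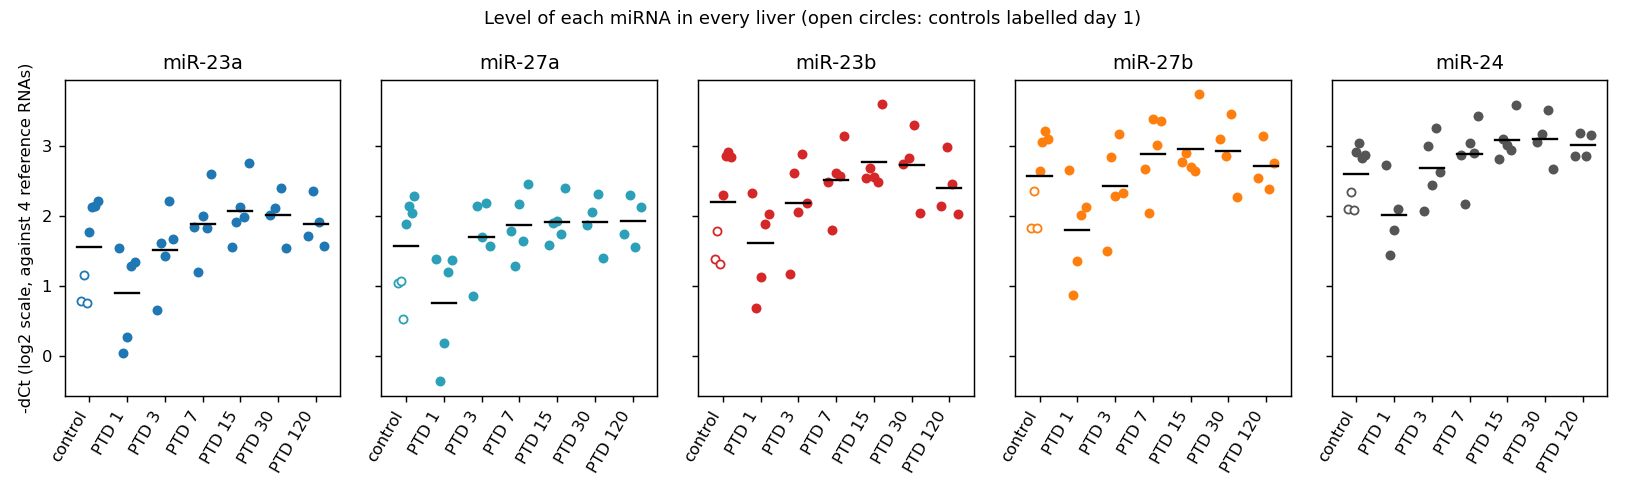
Level of each member in every liver as −ΔCt (log2 scale), by group, with 1 point per mouse and a line at the group mean. The open circles, the 3 controls labelled day 1, lie below the other 4 controls for all 5 members, and PTD 1 holds the lowest value of each member.

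At PTD 1, all 5 members had a lower mean than the controls. For miR-27a, the 5 mice had −ΔCt values of 1.38, −0.36, 0.19, 1.20 and 1.38, and the controls ranged from 0.53 to 2.29 with a median of 1.89. Replicates 2 and 3 lay below every control and the other 3 mice lay inside the control range. The mean −ΔCt was 0.757 ± 0.800 (SD, n = 5) against 1.58 ± 0.680 (SD, n = 7), and the log2 fold change was −0.82 (95% interval −1.75 to 0.11, exact permutation p = 0.0909). For the other members the log2 fold change was −0.66 (miR-23a), −0.59 (miR-23b), −0.77 (miR-27b) and −0.58 (miR-24), and replicates 2 and 3 lay below every control for each of them. The limma p adjusted over the 376 miRNAs was 0.669 for all 5. Of the members, 0 passed the thresholds of the study, an unadjusted p under 0.01 and a fold change above 2, where 1.33% of all miRNAs did. The median log2 fold change was −0.66 over the members and −0.37 over the 376 miRNAs. Against the 3 controls from its own run period, PTD 1 was compared with 4 of its 5 mice (3 for miR-24). The log2 fold changes were then between −0.25 (miR-27b) and 0.046 (miR-23b), and no member lay 2-fold away from these controls. Against the controls labelled day 30 they were −1.34 (miR-27a) to −0.90 (miR-24), and 0 of 5 passed beside 13.0% of all miRNAs. Leaving out each mouse in turn gave −0.99 (miR-27a, without a control) to −0.36 (miR-23b, without replicate 2 of PTD 1) against the remaining controls. The value of miR-24 leaves out the mouse with the Undetermined well, and with that well set to a Ct of 40 it was −4.66 and did not pass.

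At PTD 3, the members were spread around the controls. The −ΔCt values of miR-23b were 1.17, 2.61, 2.06, 2.89 and 2.19, with 1 mouse below all controls and the others among them. The log2 fold changes were between −0.15 (miR-27b) and 0.12 (miR-27a), with limma adjusted p values of 0.932 or more, and 0 of 5 members passed the thresholds beside 2.13% of all miRNAs. Against controls from their own run period they were 0.42 (miR-27b) to 0.81 (miR-27a), with exact permutation p values of 0.0893 or more (5 against 3 arrays), and against the controls labelled day 30 they were −0.58 (miR-27b) to −0.24 (miR-24).

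At PTD 7, the means of the members lay slightly above that of all 7 controls, above the controls labelled day 1 and below those labelled day 30. For miR-23a, the −ΔCt values were 1.84, 1.20, 2.00, 1.83 and 2.60, of which the highest lay above all controls. The log2 fold changes lay close together, from 0.29 (miR-24) to 0.33 (miR-23a), with a median of 0.32 beside 0.19 over all miRNAs and limma adjusted p values of 0.596 or more. They depended on single mice, with 0.15 (miR-27a) to 0.20 (miR-27b) without replicate 5 of PTD 7 and 0.44 (miR-27a) to 0.53 (miR-27b) without replicate 2. The number passing the thresholds was 0 of 5, where 9.84% of all miRNAs passed. Against controls from their own run period, which are those labelled day 1, these values were 0.99 (miR-23a), 0.98 (miR-27a), 1.02 (miR-23b), 0.89 (miR-27b) and 0.71 (miR-24), and again 0 of 5 passed beside 33.0% of all miRNAs. With the run period as a block, the value of miR-23b was the same and passed, so that 1 of 5 passed beside 38.0% of all miRNAs. Against the 4 controls labelled day 30, run in other periods, the direction was reversed for all 5, with −0.17 (miR-23a), −0.23 (miR-27a), −0.21 (miR-23b), −0.11 (miR-27b) and −0.032 (miR-24), and 0 of 5 passed beside 10.1% of all miRNAs.

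The picture at PTD 7 was different when each array was scaled to the median Ct of its miRNAs. The log2 fold changes were 0.63 (miR-23a), 0.59 (miR-27a), 0.62 (miR-23b), 0.62 (miR-27b) and 0.59 (miR-24), with exact permutation p values of 0.00126 to 0.00505 (5 against 7 arrays). All 5 mice lay above all 7 controls for each member except miR-27a, for which 4 did, and such a separation held for 17.0% of all miRNAs. The limma adjusted p was 0.0139 to 0.0427, so that 5 of 5 members fell under an adjusted p of 0.05, where 35.9% of all miRNAs did. No member reached a 2-fold change on this scale. The median Ct of the arrays was itself higher at PTD 7, at 29.8 ± 0.176 (SD, n = 5), than in the controls, at 29.0 ± 0.224 (SD, n = 7), while the Ct of the members differed less, with miR-23a at 20.4 ± 0.186 against 20.2 ± 0.186 (SD). This scaling moved the median over the 376 miRNAs from 0.19 to 0.49 on the log2 scale. At PTD 15 the same scaling gave log2 fold changes of 0.37 (miR-27a) to 0.61 (miR-23b). The exact permutation p values were 0.00505 (miR-23b and miR-24), 0.00884 (miR-23a), 0.0164 (miR-27b) and 0.0833 (miR-27a). Of the 5 mice, 2 (miR-27a) to 4 (miR-23a, miR-23b and miR-27b) lay above all 7 controls. The limma adjusted p values were 0.0528 to 0.239, so that 0 of 5 members fell under 0.05, where 24.2% of all miRNAs did.

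At PTD 15, every member had a mean above that of all 7 controls. For miR-27a and miR-27b this direction turned against the controls labelled day 30 alone. The miR-24 values were 2.82, 3.11, 3.01, 2.94 and 3.59, and 2 of the 5 lay above all controls. Its log2 fold change of 0.49 (95% interval −0.10 to 1.09) had an exact permutation p of 0.0543, the lowest of the 30 comparisons of a member with the controls. The others were 0.50 (miR-23a), 0.33 (miR-27a), 0.57 (miR-23b) and 0.38 (miR-27b), and the median of 0.49 compares with 0.36 over all miRNAs. The limma adjusted p was 0.257 or more, and 0 of 5 members passed beside 11.4% of all miRNAs. In replicate 5 of PTD 15 the reference RNAs averaged a Ct of 23.5, the highest of all arrays, and every member its highest −ΔCt of the group. Without that mouse the log2 fold changes were 0.18 (miR-27b) to 0.37 (miR-24). Against controls from their own run period, all 5 ENU mice lay above all 3 controls for every member, with log2 fold changes of 1.17 (miR-23a), 1.02 (miR-27a), 1.28 (miR-23b), 0.95 (miR-27b) and 0.92 (miR-24) and an exact permutation p of 0.0179, the smallest that 5 against 3 arrays allow. The same separation held for 44.4% of all miRNAs. There, 3 of 5 members passed the thresholds, where 40.4% of all miRNAs passed, and with the run period as a block 3 of 5 did beside 42.6%. Against the 4 controls labelled day 30, run in other periods, the log2 fold changes were 0.0037 (miR-23a), −0.18 (miR-27a), 0.045 (miR-23b), −0.052 (miR-27b) and 0.18 (miR-24), and 0 of 5 passed beside 9.04% of all miRNAs.

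At PTDs 30 and 120, the mice lay within the range of the controls or above it. The highest control value of miR-24 was 3.05. The miR-24 values at PTD 30 were 3.06, 3.18, 3.52 and 2.67, with 3 of 4 above all controls, and its log2 fold change was 0.51 (exact permutation p = 0.0697, n = 4 and 7). The log2 fold changes were 0.33 (miR-27a) to 0.53 (miR-23b) at PTD 30 and 0.14 (miR-27b) to 0.41 (miR-24) at PTD 120. The medians of 0.45 and 0.32 compare with 0.54 and 0.46 over all miRNAs. At PTD 30, 0 of 5 passed beside 1.6% of all miRNAs, and at PTD 120, 0 of 5 beside 1.33%. Against the controls labelled day 1 alone, which were run in another period, 2 of 5 passed at PTD 30 (37.5% of all miRNAs) and 0 of 5 at PTD 120 (27.9%). Within their own run period, which holds 2 of the controls labelled day 30, the values were −0.11 to 0.15 at PTD 30 and −0.17 to 0.03 at PTD 120. Against all 4 controls labelled day 30 they were −0.18 (miR-27a) to 0.19 (miR-24) and −0.33 (miR-23b) to 0.097 (miR-24).

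**Figure D3:**
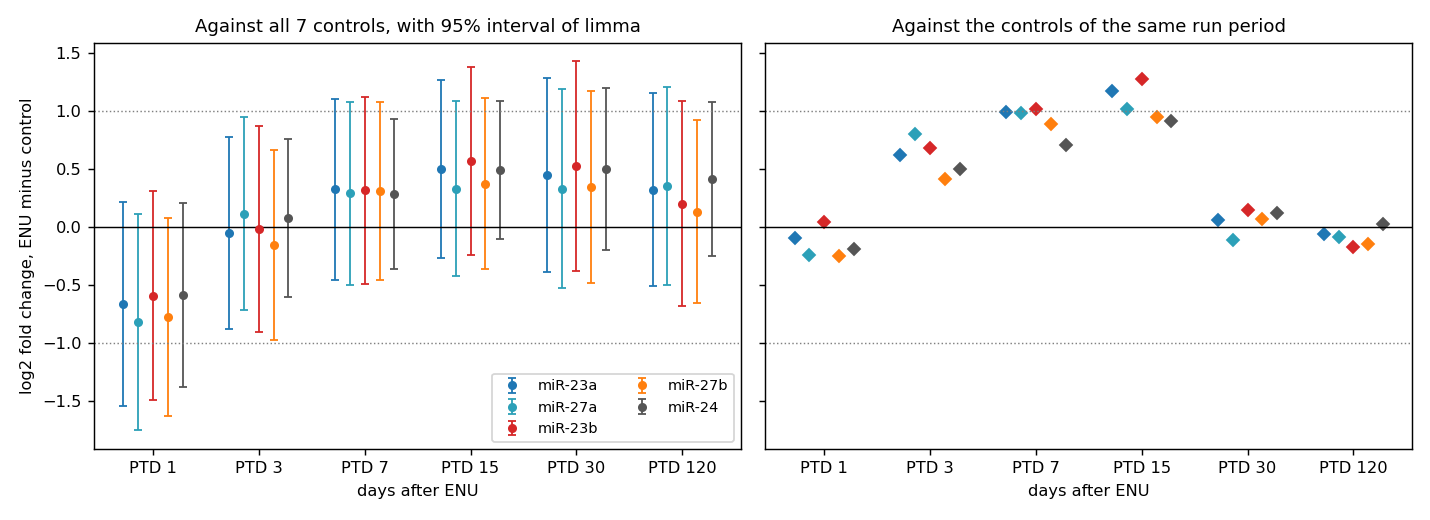
Log2 fold change of each member at each PTD, against all 7 controls with the 95% interval of limma (left) and against the controls run in the same period, without interval (right). On the left every interval includes 0, and on the right the values at PTDs 7 and 15 lie between 0.71 and 1.28, those at PTD 3 between 0.42 and 0.81, and those at PTDs 1, 30 and 120 between −0.25 and 0.15; dotted lines mark a 2-fold change.

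The comparisons of the 6 PTDs share their 7 controls and so share any difference among them. A comparison between ENU groups does not. Set against PTD 1, the 10 mice of PTDs 7 and 15 had a higher mean of every member. For miR-27b, the PTD 1 values were 2.65, 0.88, 1.36, 2.01 and 2.13, those of PTD 7 were 2.67, 2.04, 3.39, 3.01 and 3.36, and those of PTD 15 were 2.77, 2.90, 2.71, 2.64 and 3.74. Of the 10 later mice, 8 lay above all 5 mice of PTD 1, and for each of the other members 9 of 10 did. The log2 fold changes were 1.08 (miR-23a), 1.13 (miR-27a), 1.04 (miR-23b), 1.12 (miR-27b) and 0.97 (miR-24), with SEs of 0.301 to 0.322. The limma adjusted p was 0.00961 to 0.0152, and the exact permutation p 0.000999 to 0.00233 (10 against 5 arrays, and 4 for miR-24).

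Of the members, 4 of 5 passed both thresholds in this comparison, with miR-24 short of a 2-fold change, where 32.7% of all miRNAs passed. All 5 were under an adjusted p of 0.05, where 51.6% of all miRNAs were, and the median was 1.08 over the members and 0.72 over all miRNAs. Within run period 1 alone the log2 fold changes were 1.00 (miR-24) to 1.24 (miR-27a). Relative to the median Ct of the array they were 0.66 (miR-24) to 0.93 (miR-27a), with 5 of 5 under an adjusted p of 0.05 beside 51.6% of all miRNAs and 0 of 5 past both thresholds beside 26.3%. The calls depended on single mice, most of all on the lowest ones of PTD 1. Without its replicate 2, the log2 fold changes were 0.78 to 0.89, and without its replicate 3 they were 0.90 to 1.01. In either case 0 of 5 members passed both thresholds, where 19.4% and 21.3% of all miRNAs did. A limma adjusted p under 0.05 was found for 3 of 5 members in either case, where 32.7% and 32.4% of all miRNAs had one, and the highest of the members was 0.0636. Without replicate 5 of PTD 15, 2 of 5 members passed both thresholds beside 28.2% of all miRNAs, and without replicate 5 of PTD 7, 3 of 5 did beside 29.5%. All 5 members were under an adjusted p of 0.05 in both of these cases, where 46.8% and 45.5% of all miRNAs were. The mean −ΔCt over the 5 members (over 4 in the mouse without a miR-24 value) was 1.41 at PTD 1, 2.10 at PTD 3, 2.41 and 2.56 at PTDs 7 and 15, 2.54 at PTD 30 and 2.39 at PTD 120, where the arrays of the last 2 groups were run in another period. Relative to the median Ct of the array, every member had a lower mean at PTDs 30 and 120 than at PTDs 7 and 15. For miR-23a the mean was 8.48 at PTD 1, 9.41 and 9.31 at PTDs 7 and 15, and 8.82 and 8.68 at PTDs 30 and 120. For miR-24 it was 9.71, 10.40 and 10.34, and 9.91 and 9.81 in the same order. The differences of PTDs 3, 30 and 120 from PTD 1, and of PTDs 30 and 120 from PTDs 7 and 15, were not tested.

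Several other measures moved along with this difference. The reference RNAs averaged a Ct of 21.6 ± 0.483, 22.3 ± 0.497 and 22.5 ± 0.588 (SD, n = 5 each) in the groups of PTDs 1, 7 and 15. The Ct of miR-23a moved less, with 20.7 ± 0.308, 20.4 ± 0.186 and 20.5 ± 0.283 in these groups. The Ct difference of the reverse transcription control wells was −0.17 ± 0.104, 0.098 ± 0.0732 and 0.062 ± 0.102 cycles (SD, n = 5) in the same order. Among cell type markers, 3 of 6 leukocyte miRNAs (miR-150, miR-155 and miR-146a), 2 of 3 hepatocyte, 2 of 2 endothelial, 1 of 3 stromal and 0 of 3 erythroid miRNAs rose past the thresholds in the same comparison, in which 32.7% of all miRNAs passed. Of the other leukocyte miRNAs, miR-142-3p, miR-142-5p and miR-223 had log2 fold changes of 0.58, −0.55 and 1.15 and did not pass. The mean −ΔCt of the leukocyte list ran from −4.44 to −2.77 over the mice of PTD 1, from −3.16 to −2.17 at PTD 7 and from −3.00 to −1.91 at PTD 15, and no marker of the lists had an Undetermined well. The part of these measures in the difference was not tested, and in whole liver a change in the number of cells of a type and a change in RNA per cell cannot be told apart.

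The let-7 and miR-30 families are other broadly expressed families with several members on the array. In the same comparison, 5 of 9 miRNAs of the let-7 and miR-98 family and 1 of 5 of the miR-30 family passed both thresholds, with medians of 1.33 and 0.76 beside 1.08 for the miR-23, miR-27 and miR-24 members. In this comparison 32.7% of all miRNAs passed. Against the 7 controls, 1 of the 9 let-7 and miR-98 miRNAs passed at PTD 15, where 11.4% of all miRNAs did, and 0 at the other PTDs, and of miR-30 0 of 5 passed at any PTD. The median log2 fold change of the 3 miR-34 miRNAs against the 7 controls was 2.34, 2.33 and 2.64 at PTDs 3, 7 and 15.

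The a and b clusters were compared within each array, where the reference RNAs cancel. The Ct of miR-23a exceeded that of miR-23b by 0.656 ± 0.144 cycles (SD, n = 35), with a range of 0.419 to 0.993. The Ct of miR-27a exceeded that of miR-27b by 0.954 ± 0.232 cycles (SD, n = 35), with a range of 0.583 to 1.38. The b form thus read lower in Ct than the a form in 35 of 35 arrays for both pairs, and the mean over both pairs was 0.805 ± 0.163 cycles (SD). Because assay efficiencies are not known, the size of this offset between assays is not an abundance ratio. Its change between groups can be read only as far as each assay is specific to its form, which was not tested.

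Against the 7 controls, no change of the offset reached an exact permutation p under 0.05. In the controls, the offset of miR-23 was between 0.531 and 0.763, with a median of 0.638, and a mean of 0.637 ± 0.0840 (SD, n = 7). In the ENU groups its mean was 0.515 (PTD 120) to 0.717 (PTD 30). For miR-27 the mean was 1.00 ± 0.239 (SD, n = 7) in the controls and 0.728 (PTD 3) to 1.05 (PTD 1) in the ENU groups. Of the 12 comparisons with the controls, the lowest exact permutation p was 0.0568, for miR-27 at PTD 3 (5 against 7 arrays). There the mice had offsets of 0.638, 0.694, 0.583, 0.976 and 0.749, a mean 0.27 below the controls (95% interval of the change −0.54 to −0.0002, which leaves out 0), with 3 of 7 controls above 1. Against the 3 controls from the same run period the change was −0.39, with an exact permutation p of 0.0357 that was not adjusted over the comparisons. The second lowest was 0.0576, for miR-23 at PTD 120, where the 4 mice had offsets of 0.419, 0.629, 0.546 and 0.463, a mean 0.12 below the controls (95% interval of the change −0.25 to 0.001). Adjusted over the 12 comparisons, both exact permutation p values were 0.345. At PTDs 7 and 15, the change of the offset was −0.0078 (95% interval −0.11 to 0.095) and 0.069 (−0.14 to 0.28) for miR-23 and 0.025 (−0.30 to 0.35) and 0.043 (−0.26 to 0.35) for miR-27. All these intervals were taken from the pooled variance of both groups. Those that include 0 do not show that both clusters changed alike.

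**Figure D4:**
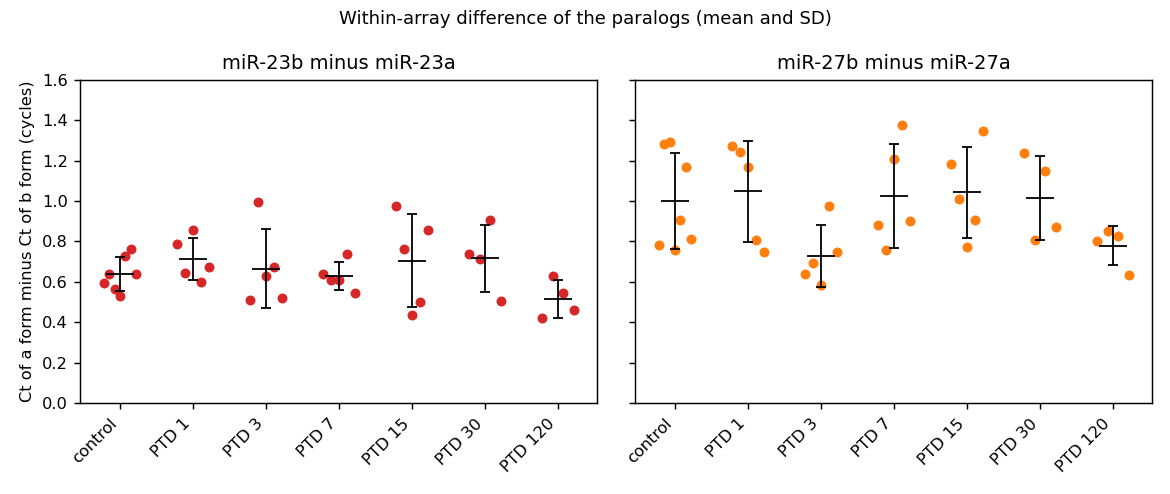
Ct of the a form minus Ct of the b form within each array (cycles), for miR-23 and miR-27, by group, with 1 point per mouse and a black mark and bar for the mean and SD. All points lie above 0, with miR-23 between 0.419 and 0.993 and miR-27 between 0.583 and 1.38.

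How closely the members moved together was described by the SD of the Ct difference of a pair of miRNAs over the arrays, which is small where they rise and fall together and in which normalization also cancels. All arrays share the 7 groups, and abundant miRNAs are measured with less error, so these values carry no test. For miR-23a the closest of the 375 other miRNAs was miR-23b, with an SD of 0.144 cycles, followed by miR-30d (0.156) and miR-99a (0.171). For miR-23b the closest was miR-23a, followed by miR-27b (0.176) and miR-30d (0.179). For miR-27b the closest was miR-23b (0.176), followed by miR-191 (0.206) and miR-23a (0.207). The median SD to the 375 others was 0.752, 0.755 and 0.759 for these 3 members.

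For miR-27a and miR-24, the closest miRNAs were not members. For miR-27a the closest were miR-152 (0.184), miR-140 (0.198) and miR-192 (0.209), and its cluster partner miR-23a stood 5th with 0.212, ahead of miR-27b at rank 9 with 0.232. For miR-24 the closest were miR-17 (0.147), miR-106a (0.153) and miR-20a (0.169), 3 miRNAs of the miR-17 family, and the other members stood at ranks 10 to 17 with 0.226 (miR-23a) to 0.256 (miR-23b). The order was not stable in detail. With the 22 arrays of run period 1 alone, the closest was miR-191 for miR-23a, miR-20a for miR-23b, miR-140 for miR-27a, miR-378 for miR-24 and still miR-23b for miR-27b, while miR-23b stood at rank 2 for miR-23a and miR-23a at rank 4 for miR-23b. After each group mean was subtracted, miR-23a and miR-23b were again each other's closest, with an SD of 0.131, and miR-17 was again closest to miR-24, but miR-20a (0.152) replaced miR-23b as the closest to miR-27b and miR-140 (0.133) replaced miR-152 for miR-27a.

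**Figure D5:**
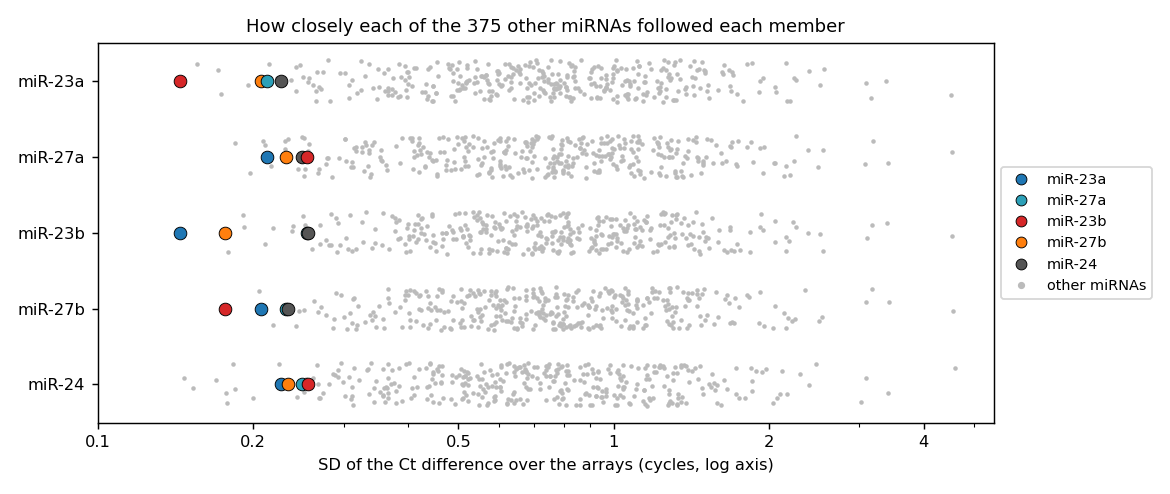
SD of the Ct difference over the arrays (cycles, log axis) between each member, by row, and each of the 375 other miRNAs. Coloured points are the other members and grey points all other miRNAs; miR-23a and miR-23b lie nearest to each other at 0.144, while for miR-24 the other members lie between 0.226 and 0.256 with several other miRNAs below them.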

How the data were processed

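Small RNA from 35 mouse livers was measured with 1 SABiosciences 384-well PCR array per mouse. The authors deposited the Ct of every well, in cycles, as the instrument software (SDS 2.3) gave it at a fixed threshold of 0.15, before any normalization. From the Ct, −ΔCt against the mean of 4 reference RNAs was computed for 376 miRNAs with Python 3.11.15 (pandas 2.3.3, numpy 2.4.6, scipy 1.17.1; figures with matplotlib 3.10.9), and 15 Undetermined wells were treated as missing. Each ENU group was compared with the 7 controls in limma 3.58.1 (R 4.3.3), with Benjamini-Hochberg adjustment over the 376 miRNAs. Single members were compared by exact two-sided permutation tests on the absolute difference of means. The thresholds are those of the study's Methods, whose own test was replaced because groups are small. Scripts were tested on simulated data. Run periods 1 to 3 were formed from the months of the recorded run dates, with February and March joined as period 1. Sequences and positions are from RefSeq (GRCm38.p6). Same-numbered mice of ENU and control groups were not paired (correlation of their deviations −0.30 to 0.52).

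The members, lists and tests were chosen with earlier results of these data known. Members were named in full, together with the 3 miRNAs closest to each, the miR-34, let-7 with miR-98, and miR-30 families, and cell type markers. The comparison of PTDs 7 and 15 with PTD 1 under other settings was added after the data were examined. No read depth applies, and the number of mice per group, 4 to 7, limits the precision. The predicted targets and the TaqMan assays were not used here.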

Additional observations from a re-analysis of the deposited data

Results flagged for a closer look

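Replicate 5 of PTD 15 stood apart from the other 4 mice of its group in the −ΔCt of the b forms, but not toward more RNA in Ct. Its Ct was 19.9 for miR-23b and 19.8 for miR-27b, in each case the highest of the group. Its −ΔCt was 3.61 for miR-23b, where the next highest mouse had 2.68, and 3.74 for miR-27b, where the next highest had 2.90. Each gap was larger than Dixon's 95% limit for 5 samples. These were 2 of the 49 groups of values examined, and chance gives about 1 in 20. Both came from the same array, so they are not separate events. The reference RNAs had their highest average Ct, 23.5, in the same array.

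The difference of PTDs 7 and 15 from PTD 1 was picked out for every member, with a log2 fold change of 1.08 for miR-23a, 1.13 for miR-27a, 1.04 for miR-23b, 1.12 for miR-27b and 0.97 for miR-24, since the exact permutation test of the difference between these groups, 10 against 5 mice (4 for miR-24), gave p values of 0.000999 to 0.00233.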

How the results depend on the processing

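No member was past the thresholds against the 7 controls under the alternatives that changed the reference RNAs, the scaling, the treatment of Undetermined or dim wells, the statistical model or the pairing, although miR-24 at PTD 1 moved from −0.58 to −4.66 with its Undetermined well set to a Ct of 40. With the controls labelled day 1 alone, 3 members passed at PTD 15, beside 40.4% of all miRNAs, and 2 at PTD 30, beside 37.5%, with arrays of 1 run period 3 passed at PTD 15, again beside 40.4%, and with the run period as a block 1 passed at PTD 7, beside 143 of 376 miRNAs, and 3 at PTD 15, beside 160 of 376. The log2 fold changes against the controls changed sign as follows, and the cause was not tested. Scaled to the median Ct of the array, they were 0.25 (miR-23a), 0.28 (miR-23b) and 0.14 (miR-27b) at PTD 3, −0.073 (miR-27a) and −0.058 (miR-27b) at PTD 30, and −0.095 (miR-23a), −0.063 (miR-27a), −0.22 (miR-23b), −0.28 (miR-27b) and −0.006 (miR-24) at PTD 120. With the controls labelled day 1 they were 0.0022 (miR-23a) and 0.12 (miR-23b) at PTD 1. With those controls, within the same period, or with the period as a block, they were 0.62 (miR-23a), 0.69 (miR-23b) and 0.42 (miR-27b) at PTD 3. Within the same period miR-23b was at 0.046 at PTD 1, and within it or with it as a block the values were −0.11 (miR-27a) at PTD 30 and −0.059 (miR-23a), −0.085 (miR-27a), −0.17 (miR-23b) and −0.14 (miR-27b) at PTD 120. With the controls labelled day 30 they were −0.40 (miR-27a) and −0.24 (miR-24) at PTD 3, −0.17 (miR-23a), −0.23 (miR-27a), −0.21 (miR-23b), −0.11 (miR-27b) and −0.032 (miR-24) at PTD 7, −0.18 (miR-27a) and −0.052 (miR-27b) at PTD 15, −0.051 (miR-23a), −0.18 (miR-27a) and −0.080 (miR-27b) at PTD 30, and −0.18 (miR-23a), −0.16 (miR-27a), −0.33 (miR-23b) and −0.29 (miR-27b) at PTD 120. Without 1 reference RNA, the values at PTD 3 were 0.02 (miR-23b, without U6), −0.053 (miR-27a) and −0.092 (miR-24) without snoRNA142, and 0.13 (miR-23a), 0.16 (miR-23b) and 0.019 (miR-27b) without snoRNA202. Leaving out each mouse in turn gave −0.22 to 0.17 (miR-23a), −0.19 to 0.24 (miR-23b), −0.34 to 0.078 (miR-27b), −0.055 to 0.33 (miR-27a) and −0.064 to 0.23 (miR-24) at PTD 3, and −0.010 to 0.24 (miR-27b) at PTD 120. The other values kept their sign, 384 of them on the same side of the thresholds and 12 now past them, and so did 333 of the values without a mouse.

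The change of the offset between the a and b forms of miR-27 at PTD 3 was −0.39, and past an exact permutation p of 0.05, with the controls labelled day 1, within the same period and with the period as a block, and −0.33 to −0.22 without each mouse in turn, past it in 4 of these cases. That of miR-23 at PTD 120 was −0.16 to −0.091 without each mouse, past it in 2. Some of the other changes of the offset turned sign, and those of miR-23 at PTDs 1, 15 and 30 and of miR-27 at PTD 120 did not. With the controls labelled day 1, within the same period and with the period as a block, they were 0.029 (miR-23) and −0.093 (miR-27) at PTD 7 and −0.075 (miR-27) at PTD 15. For miR-27 at PTD 1 they were −0.070, −0.0098 and −0.014 in that order, and at PTD 30 −0.10 with the controls labelled day 1 and −0.002 with the reverse transcription control as a covariate. Without each mouse in turn they were −0.053 to 0.068 (miR-23, PTD 3), −0.036 to 0.013 (miR-23, PTD 7), −0.0072 to 0.12 (miR-27, PTD 1), −0.063 to 0.092 (miR-27, PTD 7), −0.033 to 0.11 (miR-27, PTD 15) and −0.059 to 0.085 (miR-27, PTD 30). With the replicate block, 0 members passed at any PTD, and the offset of miR-23 at PTD 7 was 0.007 and that of miR-27 at PTD 15 −0.016.

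For PTDs 7 and 15 against PTD 1, scaling to the median Ct gave 0.88 (miR-23a), 0.93 (miR-27a), 0.83 (miR-23b) and 0.91 (miR-27b), no longer a 2-fold change. Leaving out each mouse gave 0.87 to 1.24 (miR-23a), 0.85 to 1.29 (miR-27a), 0.80 to 1.21 (miR-23b), 0.89 to 1.33 (miR-27b) and 0.78 to 1.21 (miR-24). The number of controls in 1 run period, 2 or 3, limits every comparison within a period, and the 3 closest miRNAs of a member depend on which arrays are used.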
